A study of Mus musculus with 15 samples.

Results

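The 5 genes Ubl3, Lamp2, Ctnnb1, Fam49b and Arl8a were the mRNAs with over 100 crosslinked cDNAs in their 3'UTR for TTP-AA at 1 h of LPS and none for wild-type TTP at the same time. They were chosen by these counts, from 120 genes that exceeded this number for TTP-AA at 1 h and from 21037 genes with an annotated 3'UTR. The measurement was individual-nucleotide resolution crosslinking and immunoprecipitation (iCLIP), in which UV light fixes a protein to RNA, the protein is pulled down, and each unique cDNA that stops next to the fixed nucleotide is counted. A site is such a nucleotide, and its value is its number of unique cDNAs.

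All cells were immortalised bone marrow-derived mouse macrophages without endogenous TTP, transduced with a retroviral construct that expressed GFP-TTP or GFP-TTP-AA from a doxycycline-inducible promoter. TTP-AA has alanine in place of the serines that the kinase MK2 phosphorylates. Every group received doxycycline (1 µg/ml) for 6 h, and the groups differed in protein and in the time of LPS (1 µg/ml). The TTP lists pooled 2, 4 and 2 libraries and the TTP-AA lists 2, 3 and 2 libraries, for the times 0 h, 1 h and 4 h in that order. Because each group was deposited as a sum, no replicate error could be computed and no comparison below has a p-value. Intervals are 95% intervals for counting error only. The cells are an immortalised line with an induced transgene, so protein amount follows doxycycline and not the cell's own promoter.

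Tristetraprolin (TTP, encoded by Zfp36) binds AU-rich elements in 3'UTRs through its zinc fingers and recruits the deadenylation machinery, which shortens the life of the mRNA. During the LPS response p38 activates MK2, and phosphorylation of TTP by MK2 weakens this destabilising activity. The pentamer AUUUA is the core of the classical element, and UAUUUAU is a longer form that TTP binds more tightly. The 5 genes do not belong to the cytokine mRNAs for which TTP is known. Ubl3 encodes a membrane-anchored ubiquitin-like protein, Lamp2 a lysosomal membrane glycoprotein, Ctnnb1 beta-catenin, Fam49b (also called Cyrib) a protein that binds active Rac1, and Arl8a a small GTPase of lysosomes.

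The following 30-nt windows hold the site with most TTP-AA cDNAs at 1 h in each gene, and are shown as the sequence at that site. They hold 16 of 121 TTP-AA cDNAs in Ubl3, 24 of 118 in Lamp2, 27 of 113 in Ctnnb1, 33 of 109 in Fam49b and 34 of 103 in Arl8a, so most cDNAs lay elsewhere in the 3'UTRs. The site is the base at position 15 of each window, capitals mark AUUUA, and T stands for U of the RNA. The sequences were read from GENCODE M21 transcripts on GRCm38.
Ubl3, chr5:148505110-148505139, minus strand: aaaaaaaaagattttatatttttttttcac
Lamp2, chrX:38421106-38421135, minus strand: ctttttATTTAatctttaaaaaaaaaaact
Ctnnb1, chr9:120960271-120960300, plus strand: ttagtttcctttttaatatgcttaaaataa
Fam49b, chr15:63931273-63931302, minus strand: tttttttgaaaactaatATTTAatattgct
Arl8a, chr1:135155629-135155658, plus strand: atgtatatatattttaattttttaATTTAa
Only the windows of Lamp2, Fam49b and Arl8a hold AUUUA. A window of this length with AUUUA stood around 5.09% of all positions in the 3'UTRs bound by TTP-AA at 1 h. All 5 windows are rich in A and U, from 83.3% in Ctnnb1 to 96.7% in Arl8a.

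A second set of windows shows other parts of the same 3'UTRs that held many cDNAs, again 30 nt long and centred in the same way.
Lamp2, chrX:38419713-38419742, minus strand: tttttgttttgttttactggttttgcttct
Arl8a, chr1:135156159-135156188, plus strand: tacagttttcagctcatATTTAacctctgt
The Lamp2 window is centred on the site with most cDNAs in the wild-type TTP list at 0 h. The Arl8a window is centred on the highest site of the largest further cluster of TTP-AA sites at 1 h. The Lamp2 window is 70.0% U and lacks the pentamer, which the Arl8a window holds. Windows chosen in the same way as this Arl8a window in Ubl3, Lamp2 and Fam49b are not printed, and none of them holds AUUUA.

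**Figure D1:**
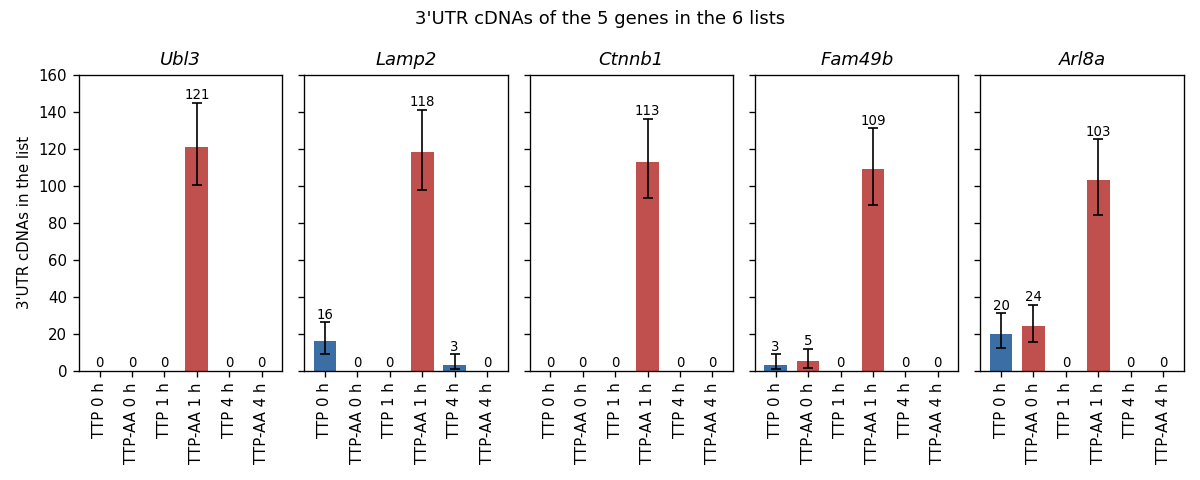
Unique cDNAs in the 3'UTRs of the 5 genes (vertical axis) in the 6 lists (horizontal axis), blue for TTP and red for TTP-AA, with exact Poisson 95% intervals that cover counting error only. The TTP-AA list at 1 h holds 103 to 121 cDNAs per gene, the TTP list at 1 h holds 0, and Lamp2, Fam49b and Arl8a are also listed at 0 h.

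At 1 h the TTP-AA list held 121 cDNAs in the Ubl3 3'UTR (interval 100.4 to 145, at 97 sites). The Lamp2 3'UTRs held 118 cDNAs (97.7 to 141, 84 sites), and the Ctnnb1 3'UTRs held 113 (93.1 to 136, 78 sites). Fam49b followed with 109 cDNAs (89.5 to 131, 81 sites) and Arl8a with 103 (84.1 to 125, 69 sites). The intervals of all 5 overlap, so the counts do not order the genes beyond counting error. A cDNA count rises with both the binding and the amount of an mRNA, and the lists cannot tell these apart. In the TTP list at 1 h each of these 3'UTRs was listed at 0. These are the values that chose the genes, and 4.17% of the 120 genes (the 5 themselves) met the condition.

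A listing at 0 does not mean that no cDNA was sequenced, because the authors' lists drop every site whose false-discovery rate was not below 0.05. The TTP list at 1 h named 1306 genes by their 3'UTR, of which 29 had 1 cDNA, 409 had 2 and 294 had 3. Sites with so few cDNAs were therefore kept in other genes, but the number below which a given 3'UTR leaves the list is not known. No ratio of TTP-AA to TTP is given for the 5 genes for this reason.

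Just inside the threshold was Arl8a with 103 TTP-AA cDNAs. Just outside it, with 0 TTP cDNAs as well, were Pdgfb (platelet-derived growth factor B) with 98, Itga4 (integrin alpha 4) with 95 and Itgav (integrin alpha V) with 91. On the other axis, no gene with over 100 TTP-AA cDNAs had exactly 1 TTP cDNA. The nearest was Ywhaz, a 14-3-3 protein, with 2 TTP and 126 TTP-AA cDNAs. The membrane-binding protein gene Anxa5, the RNA-binding protein gene Pum2 and Tnfaip2 followed with 3 TTP cDNAs each, beside 207, 102 and 108 TTP-AA cDNAs, and these 4 were named after their values were seen. Over all 115 genes with at least 1 TTP cDNA the median was 16.0 TTP cDNAs, and TTP-AA exceeded TTP by a median of 10.8-fold in cDNAs as listed. The lists as a whole differed by 9.78-fold in 3'UTR cDNAs and 1.76-fold in all cDNAs. With at least 50 TTP-AA cDNAs as the limit, 94 of 364 genes had none for TTP, so the 5 are the upper end of a larger class.

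**Figure D2:**
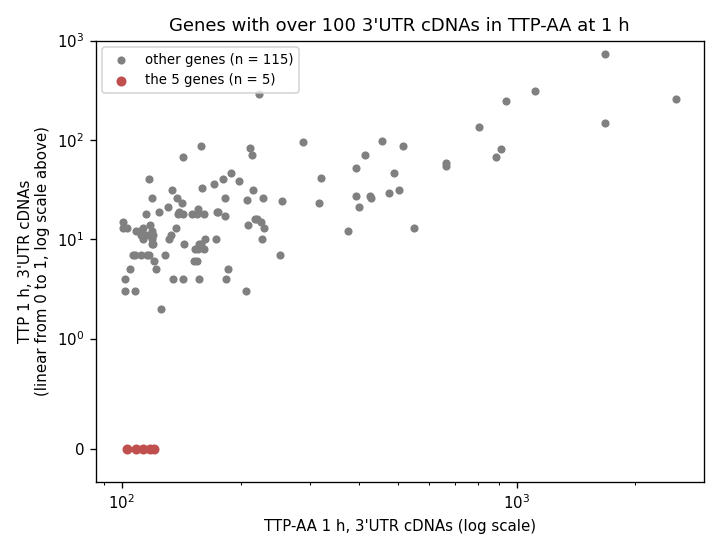
3'UTR cDNAs at 1 h in the TTP-AA list (horizontal axis, log scale) and in the TTP list (vertical axis, linear from 0 to 1 and log above) for 120 genes with over 100 TTP-AA cDNAs, 1 point per gene. The 5 genes (red) lie at 0 TTP cDNAs and at 103 to 121 TTP-AA cDNAs, and the lowest of the other 115 (grey) has 2 TTP cDNAs.

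The other times showed a different picture for 3 of the 5 genes. Before LPS, wild-type TTP was listed on Arl8a with 20 cDNAs (12.2 to 30.9), on Lamp2 with 16 (9.15 to 26) and on Fam49b with 3 (0.619 to 8.77). Ubl3 and Ctnnb1 were not listed. The wild-type protein was thus listed on 3 of 5 genes at 0 h, close to the 70.0% of the 120 genes that were listed there. TTP-AA at 0 h was listed on Arl8a with 24 cDNAs (15.4 to 35.7) and on Fam49b with 5 (1.62 to 11.7), that is on 2 of 5 genes against 61.7% of the 120. Lamp2 stood at 16 cDNAs for TTP and was not listed for TTP-AA at 0 h, although both lists were of similar size with 33587 and 32617 cDNAs.

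At 4 h the only listing in these 3'UTRs was Lamp2 for wild-type TTP, with 3 cDNAs (0.619 to 8.77) at 3 sites. That is 1 of 5 genes, against 21.7% of the 120. TTP-AA at 4 h was listed on none of the 5, against 30% of the 120. Both 4 h lists were poor in 3'UTR cDNAs, with 906 for TTP and 1000 for TTP-AA, so few genes could be named there. The 3'UTRs of Ubl3 and Ctnnb1 appeared in the TTP-AA list at 1 h and in no other list. Of the 120 genes only the 5 could do so, because the other 115 had TTP cDNAs at 1 h. Of the 94 genes with at least 50 TTP-AA cDNAs and 0 TTP cDNAs at 1 h, 28 were in no other list.

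The sizes of the lists bear on any comparison across time. The TTP-AA list at 1 h held 174397 cDNAs, of which 53.6% lay in 3'UTRs, while the other lists held 19167 to 99263 cDNAs with 3.12% to 18.4% in 3'UTRs. Per 1000000 cDNAs of the list, Arl8a had 595 for TTP at 0 h (364 to 919.7), 736 for TTP-AA at 0 h (471 to 1095) and 591 for TTP-AA at 1 h (482 to 716). The intervals overlap, and the ratio of TTP at 0 h to TTP-AA at 1 h was 1.01 (0.591 to 1.64). Per 100000 3'UTR cDNAs the same counts became 458, 399 and 110.1, and the ratio 4.16 (2.44 to 6.75). For Lamp2 the ratio of TTP at 0 h to TTP-AA at 1 h was 0.704 (0.390 to 1.19) by all cDNAs and 2.90 (1.61 to 4.91) by 3'UTR cDNAs. Fam49b gave 0.143 (0.0290 to 0.429) and 0.589 (0.120 to 1.77). For Lamp2 the ratio was below 1 by all cDNAs, with an interval that held 1. By 3'UTR cDNAs the ratio was above 1, with an interval that left 1. For Arl8a it was above 1 under both, with an interval that left 1 only by 3'UTR cDNAs, and for Fam49b it was below 1 under both, with an interval that left 1 only by all cDNAs.

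Where wild-type TTP was listed at 0 h, it was at the places that TTP-AA occupied at 1 h. In Lamp2, 8 of 10 TTP sites at 0 h were the same nucleotide as a TTP-AA site at 1 h. In Fam49b this held for 3 of 3 sites, and in Arl8a for 9 of 17, with all 17 within 15 nt. Taking the genes together, 20 of 30 sites (66.7%) coincided and 29 of 30 lay within 15 nt. In the other 115 genes 79.1% of 864 TTP sites at 0 h coincided and 99.5% lay within 15 nt, so this placement was not particular to the 5. The Lamp2 site set apart, at nt 2055 of the 3'UTR (counted from the base after the stop codon), was 21 nt from the nearest TTP-AA site and held 2 cDNAs.

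The Lamp2 element printed above, nt 577 to 606, was listed at 3 times. It held 7 TTP cDNAs at 0 h, 24 TTP-AA cDNAs at 1 h and 3 TTP cDNAs at 4 h. The 3 TTP nucleotides at 4 h, nt 591, 592 and 593, had 2, 2 and 1 TTP cDNAs at 0 h and 5, 4 and 3 TTP-AA cDNAs at 1 h. It was not listed for TTP at 1 h, nor for TTP-AA at 0 h or 4 h. In Arl8a the window printed first held 8 TTP cDNAs and 17 TTP-AA cDNAs at 0 h and 34 TTP-AA cDNAs at 1 h. The Fam49b window held 3 TTP cDNAs at 0 h and 33 TTP-AA cDNAs at 1 h.

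TTP and TTP-AA at 0 h shared part of their Arl8a sites. Wild-type TTP lay in a stretch from nt 374 to 396 with 12 cDNAs and in another from nt 831 to 853 with 8. TTP-AA lay from nt 362 to 385 with 17 cDNAs and from nt 947 to 963 with 7. The first stretch was common to both proteins, and the second differed in place. At 1 h TTP-AA had sites within 15 nt of all of these, with 38 cDNAs from nt 339 to 385, 22 from nt 836 to 865 and 39 from nt 882 to 963. In Fam49b the proteins also differed at 0 h, with TTP at nt 330 to 338 and TTP-AA at nt 402 to 495, but on 3 and 5 cDNAs.

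**Figure D3:**
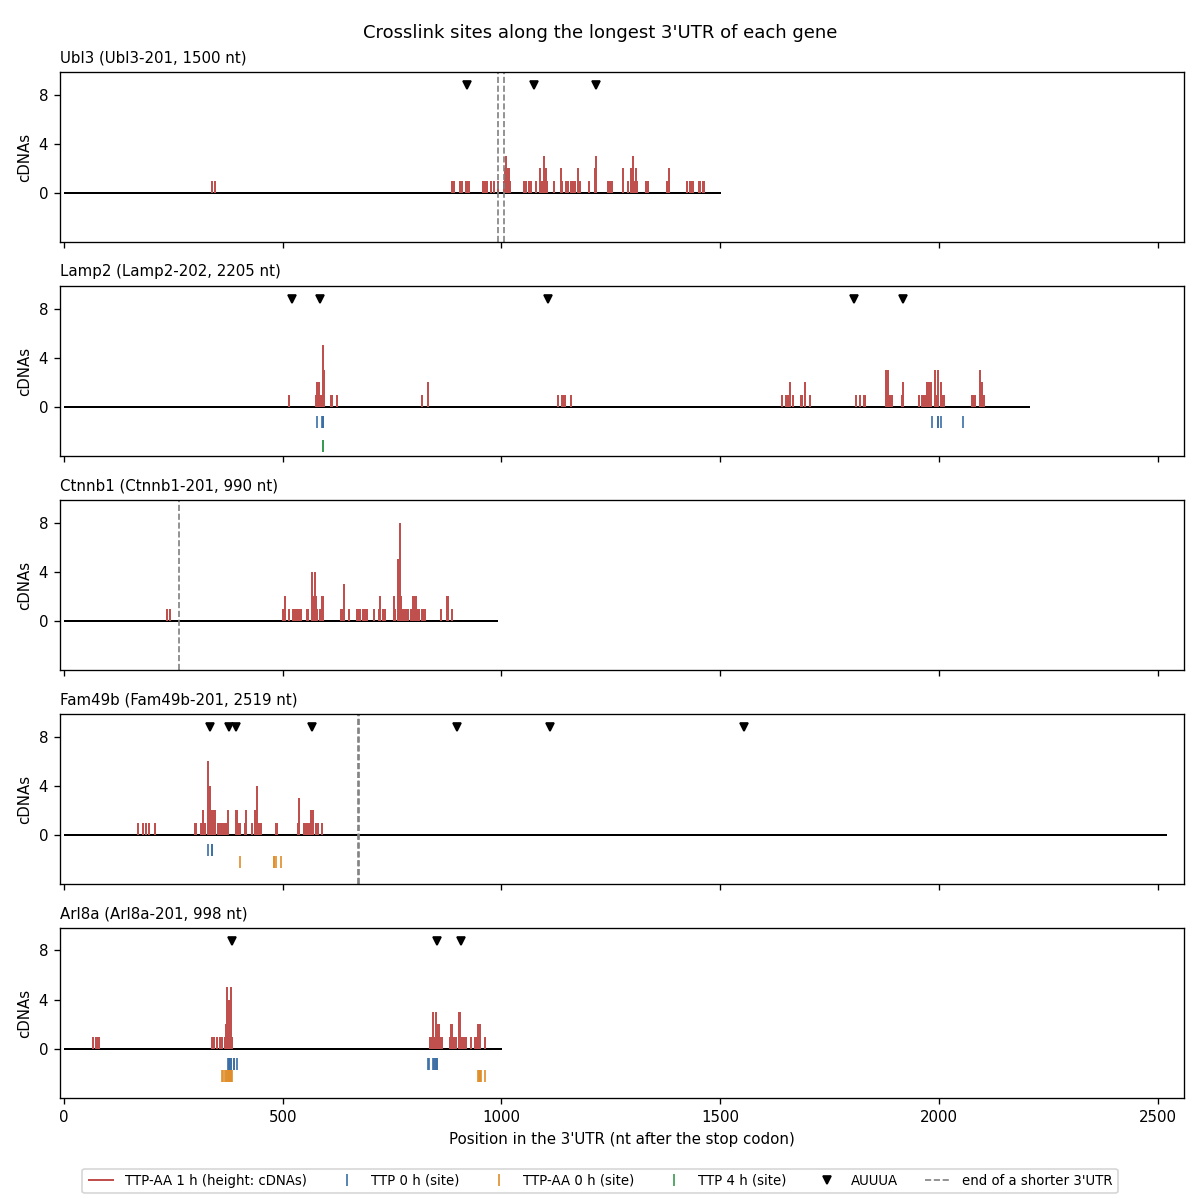
Sites along the longest 3'UTR of each gene, in nt after the stop codon. Red lines give TTP-AA cDNAs per site at 1 h, ticks under the line mark sites of TTP at 0 h (blue), TTP-AA at 0 h (orange) and TTP at 4 h (green), triangles mark AUUUA, and dashed lines mark ends of shorter annotated 3'UTRs. Ubl3 sites lie mostly past its shorter ends, Fam49b sites all before them, and Ctnnb1 has no triangle.

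The Ubl3 3'UTR (Ubl3-201, chr5:148504635-148506134, minus strand, 1500 nt) was bound in its distal part. All 121 cDNAs lay between nt 339 and 1463, with the median cDNA at nt 1153 and none in the first 300 nt. GENCODE M21 gives 2 shorter ends, at 1006 nt (Ubl3-204) and 993 nt (Ubl3-202). Of the 121 cDNAs, 101 lay past the end of Ubl3-204 (83.5%, Wilson interval 75.8 to 89.0), which only the long form contains. The highest site had 3 cDNAs at nt 1010, and its window, nt 996 to 1025, starts with a run of A beside those annotated ends. A single cDNA was all that 79.4% of the sites held. Ubl3 was thus bound along a broad distal stretch without a dominant nucleotide.

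Lamp2 has 3 separate 3'UTRs, because its last exon is alternatively spliced. Of the 118 TTP-AA cDNAs at 1 h, 111 lay in the 3'UTR of Lamp2-202 (chrX:38419507-38421711, minus strand, 2205 nt). The 3'UTR of Lamp2-201 (chrX:38405062-38405431, 370 nt) held 7 and that of Lamp2-203 (chrX:38401357-38402138, 782 nt) held none. All 16 TTP cDNAs at 0 h and all 3 at 4 h were in Lamp2-202 too. The amounts of the 3 splice forms were not measured here. Within Lamp2-202 the sites formed a compact group from nt 576 to 594 with 25 cDNAs, and a wider one from nt 1955 to 2012 with 30. These hold 21.2% and 25.4% of the cDNAs of the gene.

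Ctnnb1 was bound in the 3'UTR of Ctnnb1-201 (chr9:120959518-120960507, plus strand, 990 nt), which held all 113 cDNAs. The shorter Ctnnb1-214 ends after 263 nt and contained 3 of them, so 110 lay beyond it (97.3%, 92.5 to 99.1). The separate 3'UTR of Ctnnb1-205 (362 nt) held none. The highest site of all 5 genes was here, with 8 cDNAs at nt 768. It belongs to a group from nt 755 to 826 with 46 cDNAs, 40.7% of the gene. The gene Ulk4 lies on the opposite strand over this 3'UTR. Crosslink sites carry their strand, and no site of any list lay on the antisense strand of the 5 genes.

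Fam49b was bound in the proximal part. Its longest 3'UTR (Fam49b-201, chr15:63929097-63931615, minus strand) is 2519 nt long, but all 109 cDNAs lay between nt 168 and 590. The shorter ends of Fam49b-202 and Fam49b-207, at 674 and 672 nt, contained every cDNA, and the upper Wilson limit for the share past Fam49b-202 is 3.40%. This is the reverse of Ubl3, where most cDNAs lay past the shorter end. The leading group ran from nt 300 to 375 with 50 cDNAs, 45.9% of the gene, with its highest site at nt 328 (6 cDNAs). The 3 AUUUA pentamers at nt 897, 1108 and 1553 of the long form had no site.

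Arl8a has a single 3'UTR of 998 nt (chr1:135155272-135156269, plus strand). Besides the stretches given above, its last 100 nt held 29 of 103 TTP-AA cDNAs at 1 h (28.2%) and 7 of 24 at 0 h (29.2%). In the other 4 genes the last 100 nt held between 0% and 6.61% at 1 h, and over the 120 genes the median was 4.63% with an upper quartile of 21.1%. The first 300 nt held little in all 5 genes, from 0% in Ubl3 to 6.42% in Fam49b, beside a median of 11.4% over the 120 genes. Their quartiles of 0% and 50.9% show how widely this share varied.

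The pentamer AUUUA (sense strand, wholly within 20 nt of the site) accompanied 131 of 409 sites of TTP-AA at 1 h, a share of 32.0% (27.7 to 36.7). Over all 61183 3'UTR sites of that list the share was 34.6% (34.2 to 35.0), and 7.09% of the positions in the bound 3'UTRs had AUUUA within that reach. The 5 genes differed from each other far more than their pool did from the list. Arl8a had AUUUA near 65.2% of its sites (53.4 to 75.4) and Fam49b near 61.7% (50.8 to 71.6), beside 11.1% and 9.49% of the positions of their longest 3'UTRs. Lamp2 had it near 21.4% (14 to 31.3) and Ubl3 near 18.6% (12.1 to 27.4), beside 8.39% and 7.40% of positions. In Ctnnb1 it was near 0 of 78 sites (0% to 4.69%), because none of its 3'UTRs holds the pentamer.

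An AUUUA-free 3'UTR was found both among the strongly bound genes and among 3'UTRs in general. The pentamer was absent from the longest 3'UTR of 10 of the 120 genes, Ctnnb1 included. Among all 3'UTRs of 900 to 1100 nt, the length of that of Ctnnb1, 25.2% of 1362 had no AUUUA. The 3'UTRs of the 120 genes ran from 114 to 11064 nt, so these shares are not matched for length. The hexamer AAUAAA, the usual polyadenylation signal, was also absent from Ctnnb1, as it was from 19.4% of 3'UTRs of that length. The last AAUAAA of the longest 3'UTR began 26 nt before the annotated end in Ubl3, 24 nt in Lamp2 and Arl8a, and 18 nt in Fam49b.

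The longer form UAUUUAU was absent from every annotated 3'UTR of the 5 genes. It was absent from the longest 3'UTR of 54 of the 120 genes (45.0%) and was near 16.0% of all TTP-AA 3'UTR sites at 1 h. The absence did not extend to the wider class: of the 94 genes with at least 50 TTP-AA cDNAs and 0 TTP cDNAs 42.6% lacked it, beside 45.2% of the 270 genes with at least 50 TTP-AA cDNAs and some for TTP. In the 115 other genes over 100 cDNAs the median TTP count at 1 h was 13 without and 18 with UAUUUAU. With 5 genes chosen by their counts, no difference can be read from this.

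Runs of U were near the sites of every gene. UUUUU lay wholly within 20 nt of 39 of the 78 Ctnnb1 sites (39.2% to 60.8%), beside 22.2% of its 3'UTR positions. The shares were 55.1% in Arl8a (43.4 to 66.2), 48.8% in Lamp2 (38.4 to 59.3), 43.2% in Fam49b (33.0 to 54.1) and 17.5% in Ubl3 (11.2 to 26.3). The positions of their longest 3'UTRs with UUUUU in reach came to 19.2%, 11.2%, 17.6% and 5.20%. Each gene thus had UUUUU near its sites more often than along its 3'UTR, as had the list as a whole with 34.6% of sites and 11.7% of positions. UUUUU and AUUUA can both lie near the same site, as in the Arl8a window. Within 20 nt of sites U made up 37.8% of Ctnnb1 bases, against 29.7% in the rest of that 3'UTR. In Arl8a it made up 42.4% against 24.7%, and C made up 20.7% against 31.8%.

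The shares for UGUGU and AAUAAA varied between the genes. UGUGU was near 30.9% of Fam49b sites (21.9 to 41.6), beside 8.30% of its positions, and near 0 of 84 sites in Lamp2 to 10.3% in Ubl3 among the other 4 genes. Over all TTP-AA 3'UTR sites at 1 h it was near 9.23%, beside 8.43% of positions. AAUAAA was near 17.5% of the Ubl3 sites (11.2 to 26.3), beside 8.13% of positions, and 9.52% of the Lamp2 sites (4.91 to 17.7), beside 4.90% of positions. Its share near sites was below that of positions in Fam49b, with 0 of 81 sites beside 5.60%. The same held in Arl8a, with 1.45% of sites (0.256 to 7.76) beside 3.61%, and Ctnnb1 has no AAUAAA. Over all sites the share was 5.13%, beside 3.55% of positions. Of all 21037 longest 3'UTRs, 65.2% held AUUUA, 27.6% UAUUUAU, 72.4% UUUUU, 72.4% UGUGU and 80.1% AAUAAA, on the sense strand and with overlapping matches allowed.

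**Figure D4:**
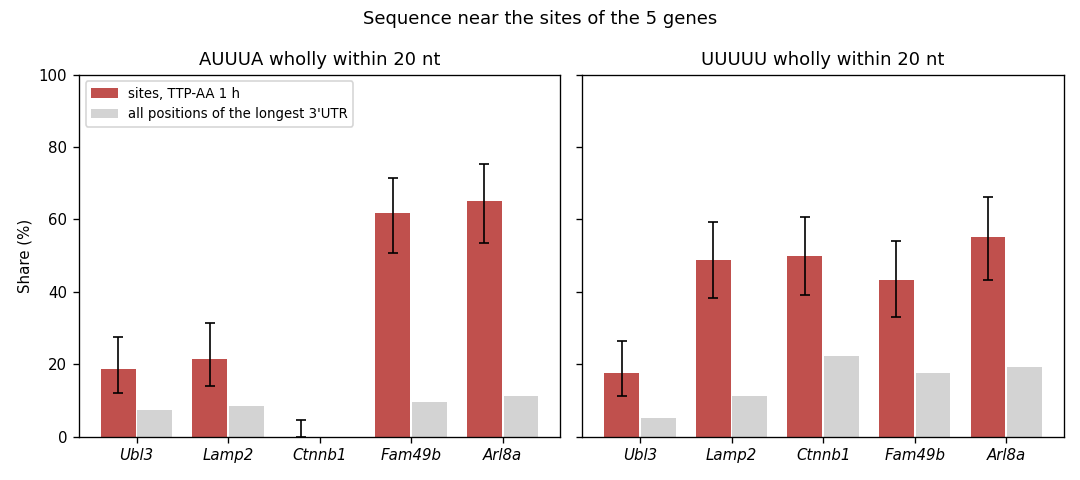
Share of TTP-AA sites at 1 h (red, with Wilson 95% intervals) and of all positions of the longest 3'UTR (grey) that have AUUUA (left) or UUUUU (right) wholly within 20 nt, in percent, for each gene. The intervals treat sites as independent, although neighbouring sites can share a motif. AUUUA ranges from 0% in Ctnnb1 to 65.2% in Arl8a, while UUUUU lies near 43.2% to 55.1% of sites in all genes but Ubl3.

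The motif shares of sites at other times rest on few sites. In Arl8a AUUUA was near 16 of 17 TTP sites at 0 h (94.1%, 73.0 to 99.0) and near 11 of 19 TTP-AA sites at 0 h (57.9%, 36.3 to 76.9). UUUUU showed the other order there, near 9 of 17 TTP sites (52.9%, 31.0 to 73.8) and 19 of 19 TTP-AA sites (83.2% as lower limit). These sites fall in 2 stretches each, so they are not independent. In Lamp2 AUUUA was near 5 of 10 TTP sites at 0 h.

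Outside the 3'UTR, Lamp2 was the only member with coding sites. TTP-AA at 1 h was listed at 10 CDS sites with 1 cDNA each, and 29.2% of the 120 genes had a CDS cDNA in that list. In 3 lists the sites met in the last coding exon of Lamp2-201, shortly before its 3'UTR. TTP at 0 h lay there at chrX:38405475 and 38405479, TTP-AA at 1 h at 4 sites from 38405456 to 38405476, and TTP-AA at 4 h at 38405478 and 38405479. The last of these was the same nucleotide as a TTP site at 0 h. No member had a CDS cDNA for TTP at 1 h, where 15.8% of the 120 genes had some.

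Introns gave the only wild-type signal at 1 h. Intron here means any part of a gene outside the CDS and UTRs of its protein-coding transcripts. TTP was listed in such parts of Fam49b with 6 cDNAs at 5 sites (chr15:63951500-63951501 and chr15:64012846-64012848) and of Lamp2 with 3 cDNAs at 3 sites (chrX:38411316-38411323). That is 2 of 5 genes, beside 16.7% of the 120 with an intron cDNA in that list. The Fam49b sites were at least 20052 nt (first pair) and 81398 nt (the other 3) from the nearest TTP-AA 3'UTR site at 1 h, and the Lamp2 sites at least 6005 nt. TTP-AA at 1 h was listed in Lamp2 introns with 4 cDNAs, and TTP-AA at 0 h in an intron of Ubl3 with 4 cDNAs (chr5:148529554-148529557). No site of any list fell in a 5'UTR of the 5 genes or in the 1000 nt past their annotated ends.

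Next to other strongly bound 3'UTRs the 5 were bound diffusely. They had 1.25 (Ubl3) to 1.49 (Arl8a) cDNAs per site, and the 120 genes had a median of 1.74 with a lower quartile of 1.48. The leading group of sites (gaps of up to 15 nt) held 25.4% (Lamp2) to 45.9% (Fam49b) of the cDNAs, below the median of 54.8%. The 5 genes also stood at ranks 86 to 115 of 120 in TTP-AA cDNAs, so genes of like count were set beside them. Among the 26 other genes with 103 to 121 TTP-AA cDNAs the median was 1.57 cDNAs per site with quartiles of 1.33 and 1.86, and 46.1% in the leading group with quartiles of 30.1% and 72.7%. Against these the 5 stood within or close to the quartiles. The 26 genes had 3 to 40 TTP cDNAs at 1 h, with a median of 11. All these measures come from the list that chose the genes and are descriptions.

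**Figure D5:**
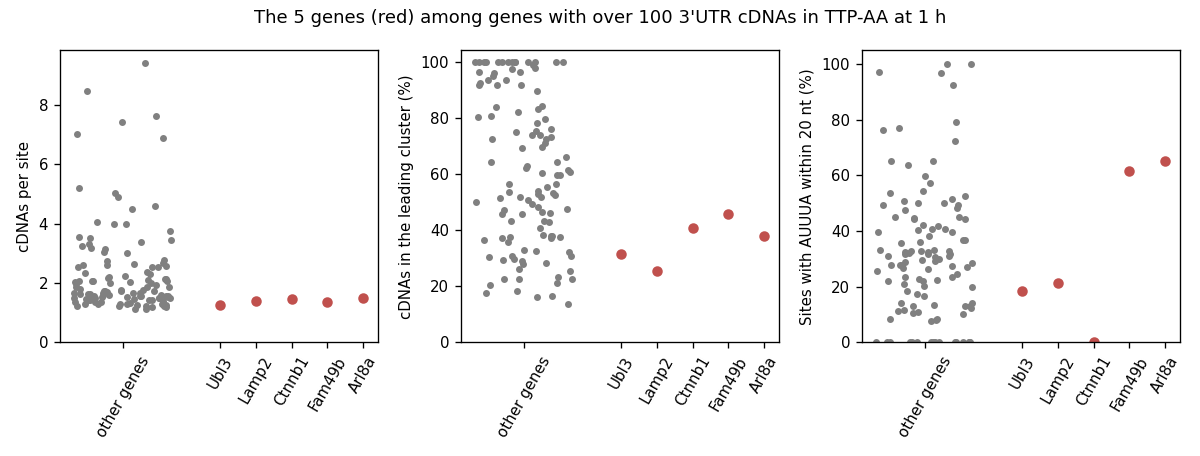
cDNAs per site, share of cDNAs in the leading group of sites and share of sites with AUUUA within 20 nt, in the TTP-AA list at 1 h, for the 5 genes (red) and the 115 other genes with over 100 cDNAs (grey, spread sideways at random). The 5 lie low in the first panel at 1.25 to 1.49 and spread over the third from 0% to 65.2%.

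Their 3'UTRs were of ordinary length for this class. The longest 3'UTR measured 990 nt in Ctnnb1, 998 nt in Arl8a, 1500 nt in Ubl3, 2205 nt in Lamp2 and 2519 nt in Fam49b, and the median of the 120 was 1484 nt with quartiles of 772 and 2536. They held 0, 3, 3, 5 and 7 AUUUA, beside a median of 4.00.

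The families around the 5 genes were listed more often for TTP-AA than for TTP at 1 h, as was the whole list. Of all 21037 genes 21.4% were listed for TTP-AA and 6.21% for TTP, and these were not limited to genes expressed in the cells. Each family count below includes its member of the 5, which was chosen for being listed for TTP-AA and not for TTP. Of 20 ubiquitin-like modifiers 11 were listed for TTP-AA and 1 for TTP. Ubl3 was chosen for its count, and after it came the autophagy protein gene Map1lc3b and the polyubiquitin gene Ubb with 10 TTP-AA cDNAs each, and Ubb had the only TTP listing with 3. Of 16 lysosomal membrane proteins 10 were listed for TTP-AA and 3 for TTP. Lamp1, the paralogue of Lamp2, had 81 TTP-AA and 3 TTP cDNAs, and Laptm5, a lysosomal protein of blood cells, had 39 and 3.

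Of 17 genes of Arl8 and the BORC complex, which place lysosomes in the cell, 8 were listed for TTP-AA and 1 for TTP. Arl8b, the paralogue of Arl8a, had 51 TTP-AA cDNAs and, like Arl8a, none for TTP at 1 h, but it was listed at no other time. The late endosomal GTPase gene Rab7 had 36 TTP-AA and 8 TTP cDNAs. Of 35 genes of the beta-catenin pathway 15 were listed for TTP-AA and 6 for TTP. The kinase genes Csnk1a1 and Gsk3b, whose products phosphorylate beta-catenin for its degradation, had 60 and 56 TTP-AA cDNAs. Csnk1a1 had none for TTP, and Gsk3b had 8. Csnk1e, a kinase of the same family as Csnk1a1, had 48 TTP-AA and 3 TTP cDNAs.

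Of 16 genes of Rac1 and the WAVE complex, which builds actin networks downstream of Rac1, 9 were listed for TTP-AA and 5 for TTP. Wasf2, which encodes a WAVE protein, had 91 TTP-AA and 4 TTP cDNAs. Rac1 itself had 40 and 1, and Abi2, a subunit of the complex, had 9 and 3. The GTPase gene Rac2 had the same 3 TTP cDNAs beside 8 for TTP-AA. Fam49a, the paralogue of Fam49b, had 3 TTP-AA cDNAs and none for TTP. In each of the 5 families no gene was listed for TTP at 1 h that was not listed for TTP-AA, and of all 1306 genes listed for TTP 13.6% were not listed for TTP-AA.

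Marker genes of cell types were looked up in the lists. All 10 macrophage marker genes had exonic cDNAs in the TTP-AA list at 1 h, with 449 cDNAs in sum, and 0 to 5 were listed in each of the other lists. None of 4 T cell, 3 B cell, 4 fibroblast and 4 epithelial markers was in any list. The lists hold bound sites and do not measure expression, so an unlisted marker does not exclude a cell type. By 3'UTR, 21.4% of all genes were listed for TTP-AA at 1 h and 6.21% for TTP at 1 h. The 3'UTR of Zfp36 held 131 cDNAs for TTP-AA and 21 for TTP at 1 h, although the cells are described as lacking TTP.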

How the data were processed

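Crosslink sites were analysed from 6 deposited lists, each with a score per site: per the file headers and the values, the count of unique cDNAs, written as negative on the minus strand. The authors collapsed reads by random barcode, mapped them with Bowtie to mm10 (GRCm38, Ensembl 75), added up the libraries within a group and retained sites with an iCount FDR below 0.05 (100 permutations, neighbourhood of 15 nt). Only the headers of the 1 h lists carry a mark that regions were taken as a unit, and whether this moved the 1 h lists was not tested. Depth was 19167 to 174397 cDNAs per list.

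Sites were assigned on their strand to 3'UTRs merged over the protein-coding transcripts of GENCODE M21, then to CDS, 5'UTR and intron, with Python 3.11.15. Positions are 1-based. Wilson and exact Poisson intervals came from scipy 1.17.1. Sequences and motif matches came from M21 transcripts, and 0 transcripts differed in length from their exons. The functions gave the known answers on simulated data.

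The genes and gene families were chosen with earlier results of these data known. Named genes were the 5 members, the genes nearest to either limit of the rule, and in each family the 3 with most TTP-AA and 2 with most TTP cDNAs at 1 h. The paralogue Fam49a and, for its equal count, Rac2 were named after its values were seen. A limit of 3 cDNAs for a count of 0 had been planned but was not used, since the lists hold only sites past a threshold. A further Ctnnb1 window is not reported here. The alternatives tried were other 3'UTR definitions, motif reaches, cluster gaps and minimum counts.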

Additional observations from a re-analysis of the deposited data

Results flagged for a closer look

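The listed counts of Lamp2 differed in sign between times. Its 3'UTR cDNAs for TTP-AA minus those for TTP were -16 at 0 h (0 against 16), 118 at 1 h (118 against 0) and -3 at 4 h (0 against 3). The 1 h value chose the gene and is no independent observation. Each sign is set against a listing at 0, which does not mean that no cDNA was sequenced, and at 4 h it rests on 3 cDNAs (0.619 to 8.77). Each group is a single pooled list, so the difference between times was not tested. In the other 4 genes the listed counts did not differ in sign between times.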

How the results depend on the processing

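No paired analysis was possible because each deposited list is the sum of the libraries of its group, and leaving out a library could not be done for the same reason. The 564 TTP-AA cDNAs of the 5 genes at 1 h became 557 on the longest 3'UTRs alone. They stayed at 564 with 1000 nt past the annotated ends or with CDS ahead of 3'UTR. TTP at 1 h stayed at 0 in each gene, where only the added 1000 nt could have raised the count. Counting sites gave 409, and keeping sites of at least 2 cDNAs gave 258. The share of sites with AUUUA, 32.0%, became 19.8% within 10 nt, 51.6% within 50 nt and 39.8% at sites of at least 2 cDNAs. Clusters of the 5 genes numbered 40 with gaps of up to 15 nt and 113 with gaps of up to 5 nt. Requiring at least 5 cDNAs left 6 ubiquitin-like modifiers and 5 genes of Arl8 and BORC for TTP-AA. For TTP it left 0 ubiquitin-like modifiers, 0 lysosomal membrane proteins, 0 genes of Rac1 and WAVE and 1 of the beta-catenin pathway. The denominator, an alternative chosen after seeing the data, moved the ratios of 0 h to 1 h by over 1.5 times, as given with the counts over time. Of 104 alternatives 68 moved a value by less than its counting error or, for counts of genes, by up to 1.5 times. The 68 include counts and shares of 0 that the alternative could not change. Few 3'UTR cDNAs limit the 4 h values, with 906 for TTP and 1000 for TTP-AA.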
